A study of Mus musculus with 2 samples.

Results

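The genes described here are 10 components of the link between a muscle cell and its surrounding basement membrane. They are the laminin alpha chains Lama2, Lama4 and Lama5, the laminin receptor subunits Itga6, Itga7 and Dag1, the cytoskeletal linkers Dmd and Utrn, and the sarcoglycans Sgca and Sgcb. They were chosen by gene symbol, each symbol matched 1 row of both matrices, and the matrices list 32285 genes in all. The study measured RNA in single cells of skeletal muscle tissue from the limbs of mouse embryos of an earlier (E12.5) and a later (E15.5) embryonic day, as 1 library for each age. Both libraries came from WT embryos of the C57Bl/6 strain with no treatment named in the labels, and each pooled forelimb and hindlimb tissue that was broken up mechanically and with trypsin. The number of embryos in a library is not given in the sources used here.

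With 1 library per age there is no replicate check on any difference between ages and no test was made. Ranges in parentheses are 95% intervals and allow for counting error alone. Levels are CPM, the usual library-scaled counts, taken here from the UMIs (counted RNA molecules) of a gene over all UMIs of the cells of a class. The E12.5 library held 12941 barcodes and 34907675 UMIs, and the E15.5 library 5780 barcodes and 46966083 UMIs. After filtering, 11001 cells (median 2322 UMIs) and 3916 cells (median 9329 UMIs) remained, and 11 cell barcodes occurred in both libraries. The cell classes were rebuilt from marker genes, are named after the cells they resemble, and were clustered with the 10 genes left out. The muscle-like class (muscle from here on) held 605 cells (median 3772 UMIs) at E12.5 and then 396 cells (median 14319 UMIs). At E12.5 it held 373 progenitor-like cells and 232 differentiating cells, and at E15.5 it held 309 and 87. The median gene was 0.35 lower on the log2 scale at E15.5 in muscle, 0.35 lower in connective tissue and 0.29 lower in the endothelial class. Differences between ages are given on the CPM scale, followed where it matters by the value relative to that median gene.

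Laminins are heterotrimers of an alpha, a beta and a gamma chain, and the alpha chain carries the sites that cell surface receptors bind. Muscle fibres hold on to laminin through dystroglycan (from Dag1), which is tied to cortical actin by dystrophin or its homologue utrophin and is flanked in the membrane by the sarcoglycans, and through integrins such as the one that contains the alpha7 subunit. Loss of LAMA2, DMD or a sarcoglycan causes muscular dystrophy in humans.

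Only part of the set was highest in muscle. Among the classes with at least 30 cells, Sgca and Lama5 had their highest level in muscle at both ages. Lama2, Itga7, Dag1 and Dmd had it there at E12.5. The lead over endothelial cells at E12.5 was within counting error for Lama5 (log2 ratio 1.10, -0.61 to 3.47) and Dmd (0.79, -0.29 to 2.07). It was also within counting error for Itga7 (5 UMIs against 0). The 28 Schwann-like cells of E12.5 lie outside that ranking and held more Dag1, 239 CPM (157 to 347). Within the ranking, Lama4 and Itga6 were highest in endothelial cells at E12.5 and in Schwann-like cells at E15.5, and Itga7 was highest in mural cells at E15.5. Outside it, the E12.5 Schwann-like cells held 477 CPM (359 to 623) of Lama4 and 230 CPM (150 to 337) of Itga6. The 24 immune-like cells of E12.5 held 274 CPM (186 to 389) of Itga6. These intervals overlap those of E12.5 endothelial cells, 541 CPM (485 to 602) for Lama4 and 344 CPM (299 to 393) for Itga6. Utrn was lower in muscle than in connective tissue at both ages. The share of kept cells that were muscle was 5.5% in the younger library and 10.1% in the older, which bears on the shares of UMIs by source.

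**Figure D1:**
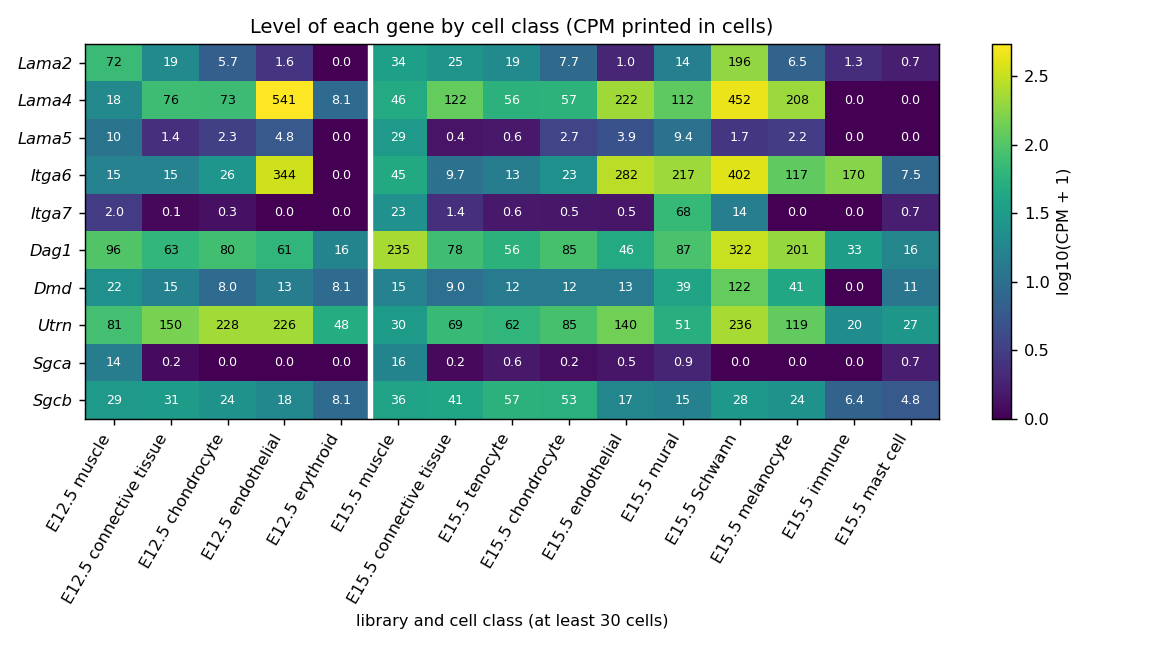
Level of the 10 genes (rows) in each cell class with at least 30 cells (columns, E12.5 left of the white line, E15.5 right), as CPM printed in each field and as log10(CPM + 1) in colour. Sgca is near 0 outside muscle, whereas Lama4 and Itga6 are brightest in the endothelial and Schwann columns.

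Lama2 (chr10:26980036-27619758, minus strand, GRCm38) encodes the alpha chain of the main laminin of adult muscle basement membrane. Its level in muscle at E12.5 was 72.2 CPM (62.0 to 83.5, 181 UMIs), against 33.6 CPM (29.2 to 38.5, 206 UMIs) at E15.5. The intervals did not overlap, and the log2 ratio was -1.10 (-1.40 to -0.81), or -0.75 relative to the median gene. In connective tissue Lama2 went the other way, from 19.1 CPM (17.3 to 21.1) to 24.8 CPM (22.6 to 27.2), giving a log2 ratio of 0.37 (0.18 to 0.57). Muscle was 2.11 (1.85 to 2.37) log2 units above all other cells at E12.5 and 0.68 (0.45 to 0.90) above them at E15.5. The share of cells with a Lama2 UMI after thinning each cell to 2000 UMIs was 14.0% (11.3 to 17.2) and 6.41% (4.19 to 9.32) in muscle, against 23.6% and 34.3% unthinned. Endothelial cells, whose median depths were 3912 and 10777 UMIs, had thinned shares of 0.855% and 1.52%.

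Schwann-like cells held the highest Lama2 level at E15.5, with 196 CPM (162 to 236, 114 UMIs from 49 cells), 2.55 (2.20 to 2.88) log2 units above muscle. At E12.5 the 28 Schwann-like cells gave 1 UMI, which is 8.84 CPM (0.224 to 49.2). Lama2 is the chain that Schwann cells also place in the basement membrane of nerves. Of all Lama2 UMIs in kept cells, 29.6% came from muscle at E12.5 against 22.0% at E15.5. Connective tissue, which had far more cells, gave 63.2% and 48.9%, and Schwann-like cells 0.164% and 12.2%.

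Lama4 (chr10:38965515-39110188, plus strand), the alpha chain of vascular and other early basement membranes, was higher in muscle as a whole and lower in endothelium at E15.5 than at E12.5. Muscle held 18.3 CPM (13.4 to 24.5, 46 UMIs) at E12.5 against 46.5 CPM (41.3 to 52.2, 285 UMIs) at E15.5, giving a log2 ratio of 1.34 (0.89 to 1.82). Endothelial cells held 541 CPM (485 to 602) and 222 CPM (202 to 243), giving a log2 ratio of -1.28 (-1.49 to -1.08) that was -0.996 relative to the median gene. Connective tissue lay between them at 76.0 and 122 CPM (log2 ratio 0.68, 0.58 to 0.77). The thinned share of muscle cells with a Lama4 UMI was 3.24% (1.93 to 5.07) at E12.5 against 9.74% (6.99 to 13.1) in the older library. In erythroid-like cells it was 1 of 37 (2.70%, 0.0684 to 14.2) and 1 of 18 (5.56%, 0.141 to 27.3), which overlap muscle at both ages. Immune-like cells had 0 of 23, allowing up to 13.0%, and 0 of 56, allowing up to 5.36%, and of these 4 comparisons the immune-like cells of E15.5 alone lay below the muscle interval. The low E12.5 level in muscle could not be told from background at this depth. The unthinned shares in muscle were 6.28% and 38.9%. Schwann-like cells held 477 CPM (359 to 623) and 452 CPM (399 to 510), a difference within the counting error.

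Lama5 (chr2:180176373-180225859, minus strand) encodes the alpha chain found in most mature epithelial and vascular basement membranes. Its level in muscle was 10.4 CPM (6.77 to 15.2, 26 UMIs) at E12.5 against 28.5 CPM (24.5 to 33.1, 175 UMIs) at E15.5, giving a log2 ratio of 1.46 (0.86 to 2.12). In connective tissue it was 1.39 CPM (28 UMIs) and 0.380 CPM (7 UMIs), giving a log2 ratio of -1.87 (-3.31 to -0.64). The muscle share of all Lama5 UMIs was 40.0% (28.0 to 52.9) at E12.5 against 78.5% (72.5 to 83.7) at E15.5. Mural cells followed muscle at E15.5 with 9.40 CPM (4.51 to 17.3), and the 25 epithelial-like cells gave 21.0 CPM (9.60 to 39.8) from 9 UMIs. Progenitor-like cells (28.9 CPM) and differentiating cells (27.1 CPM) did not differ in Lama5 beyond counting error at E15.5 (log2 ratio -0.10, -0.67 to 0.45).

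**Figure D2:**
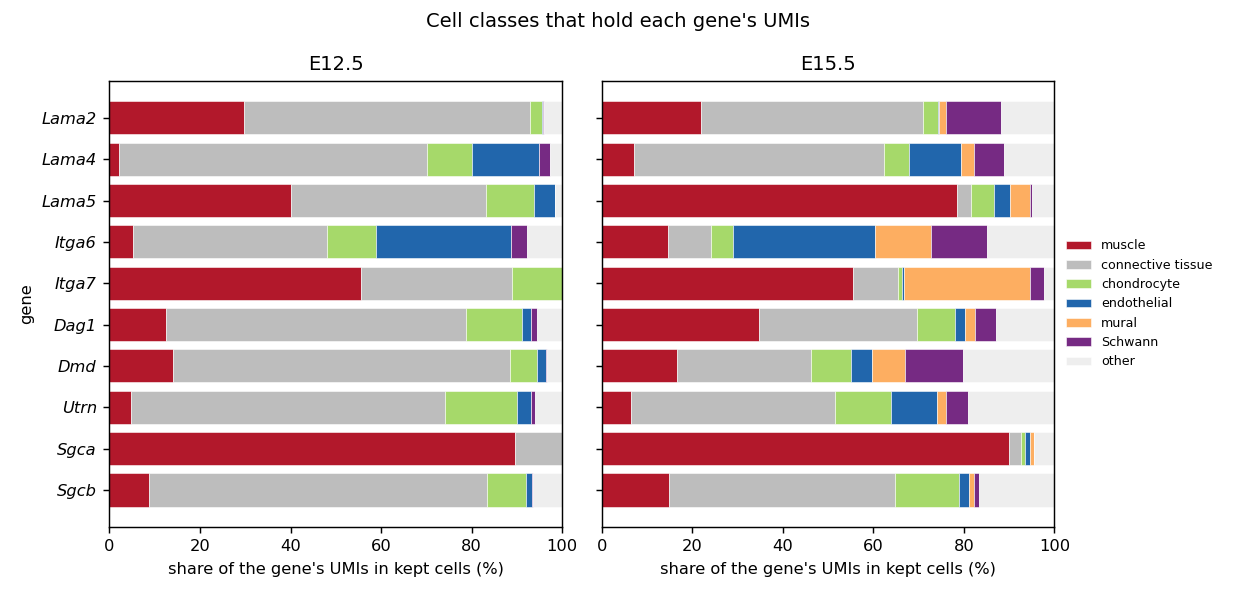
Share of each gene's UMIs in kept cells (x axis, percent) that came from each cell class, at E12.5 (left) and E15.5 (right). The muscle part (red) takes 89.5% (E12.5) and 89.9% (E15.5) of Sgca, and it is larger at E15.5 for Lama5 and Dag1.

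Itga6 (chr2:71745616-71858416, plus strand), an integrin subunit that binds several laminins, was mainly a non-muscle transcript. Endothelial cells held 344 CPM (299 to 393) at E12.5 against 282 CPM (259 to 306) at E15.5. At E15.5 Schwann-like cells held 402 CPM (352 to 457), mural cells 217 CPM (190 to 247) and immune-like cells 170 CPM (142 to 201). Muscle was far lower at 15.2 CPM (10.7 to 20.8, 38 UMIs) and 45.0 CPM (39.9 to 50.7, 276 UMIs), but its log2 ratio between ages was 1.57 (1.08 to 2.10), while that of endothelial cells was -0.29 (-0.52 to -0.06) and 0.00099 relative to the median gene. Muscle was below all other cells at E12.5 (log2 ratio -0.80, -1.31 to -0.33) and did not differ from them beyond counting error at E15.5 (-0.03, -0.22 to 0.15). The 10 endothelial markers summed to 14.8 CPM in muscle at E12.5, where Tie1, Emcn and Cldn5 were at 0, and to 28.7 CPM at E15.5, where all 10 had UMIs, and the 12 connective tissue markers to 872 and 1007 CPM. Their part in the Lama4 and Itga6 values of muscle was not tested.

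Itga7 (chr10:128933818-128958282, plus strand) encodes the laminin-binding integrin subunit best known from muscle fibres. At E12.5 it had 9 UMIs in all kept cells, of which 5 were in muscle (1.99 CPM, 0.647 to 4.65) and none in the 373 progenitor-like cells. At E15.5 muscle held 143 UMIs and 23.3 CPM (19.7 to 27.5), giving a log2 ratio of 3.55 (2.29 to 5.19). Progenitor-like cells, with no UMI at E12.5, held 109 UMIs and 22.5 CPM (18.5 to 27.2) at E15.5. The log2 ratio was 3.49 when 3 counts stand in for the 0, and the lower limit of its exact interval was 3.17. Progenitor-like and differentiating cells did not differ beyond counting error at E15.5 (log2 ratio 0.22, -0.38 to 0.79). The highest class at E15.5 was mural cells, the smooth-muscle-like cells around vessels, with 67.7 CPM (53.0 to 85.2, 72 UMIs from 70 cells). They were 1.54 (1.11 to 1.95) log2 units above muscle. Muscle gave 55.4% (49.1 to 61.6) of the Itga7 UMIs at E15.5 and mural cells 27.9% (22.5 to 33.8). No mural class was named at E12.5.

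Dag1 (chr9:108204634-108263958, minus strand) encodes dystroglycan, the laminin receptor of the dystrophin complex. UMIs of it were found in every class. Muscle went from 96.5 CPM (84.7 to 109, 242 UMIs) to 235 CPM (223 to 248, 1443 UMIs), giving a log2 ratio of 1.29 (1.09 to 1.49) that lay between 1.11 and 1.64 under 13 alternatives. In connective tissue the change was 0.31 (0.20 to 0.42), from 63.3 to 78.4 CPM. Muscle exceeded the other cells by 0.56 (0.36 to 0.75) log2 units at E12.5 and by 1.60 (1.503 to 1.69) at E15.5. After thinning, 17.6% (14.5 to 21.1) and 36.7% (31.9 to 41.7) of muscle cells had a UMI, against 11.97% (6.70 to 19.3) and 6.06% (2.65 to 11.6) of endothelial cells. The unthinned shares were 31.4% and 84.8% in muscle. Schwann-like cells were above muscle at E15.5 with 322 CPM (278 to 372).

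**Figure D3:**
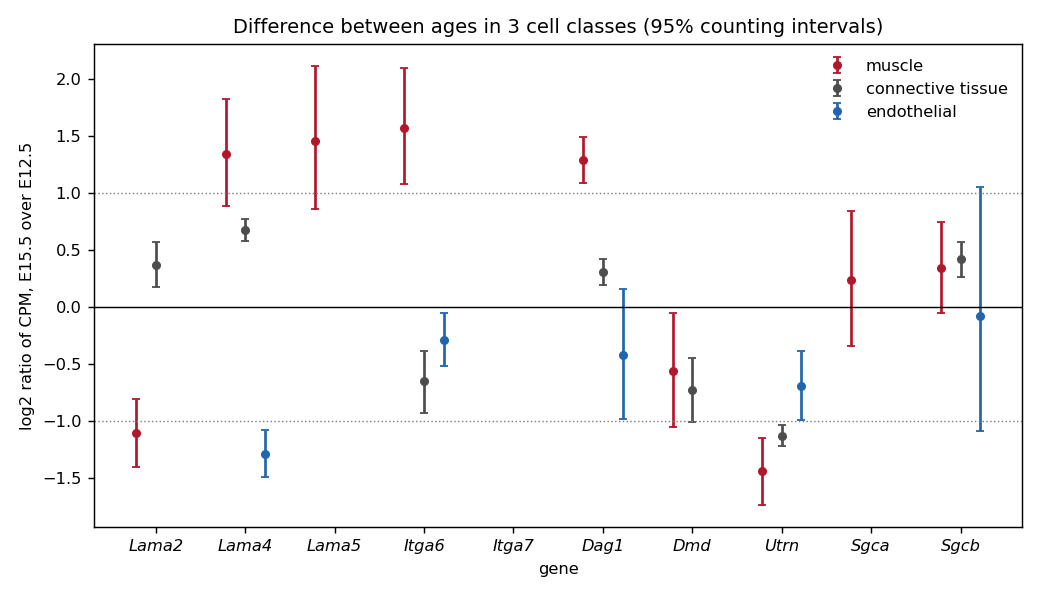
Log2 ratio of CPM at E15.5 over E12.5 (y axis) for each gene in muscle, connective tissue and endothelial cells, with 95% counting intervals; ratios with under 10 UMIs at either age are not drawn, which leaves out Itga7. Lama2 is below 0 in muscle and above 0 in connective tissue, Lama4 is above 0 in muscle and below 0 in endothelial cells, and Utrn is below 0 in all 3 classes.

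Dmd (chrX:82948870-85206141, plus strand) encodes dystrophin. The files hold 1 value for the gene, so that the long muscle form and the short forms that start inside the gene, one of which is known from Schwann cells, cannot be told apart by their counts. In muscle the level was 22.3 CPM (16.9 to 29.0, 56 UMIs) at E12.5 against 15.2 CPM (12.2 to 18.6, 93 UMIs) at E15.5. The change between ages, -0.56 (-1.05 to -0.05) on the log2 scale, depended on the processing: it was above 0 under 2 of 13 alternatives and reached 0.42 with each cell thinned to 2000 UMIs. The E12.5 UMIs were concentrated: 45 of the 56 came from a single cluster of 50 cells led by sarcomere genes (149 CPM, 108 to 199), against 5.35 CPM (2.31 to 10.5) in progenitor-like cells and 4.23 CPM in the cluster led by Myog. The sarcomere-led cluster was 4.80 (3.70 to 6.10) log2 units above the progenitor-like cells. At E15.5 the sarcomere-led cluster of 87 cells held 24.8 CPM (16.9 to 34.9), but 30 of its 32 Dmd UMIs lay in 5 cells. In progenitor-like cells Dmd went the other way, from 5.35 to 12.6 CPM (log2 ratio 1.24, 0.17 to 2.51).

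Outside muscle, Dmd reached 122 CPM (95.6 to 154, 71 UMIs) in the 49 Schwann-like cells at E15.5, 3.01 (2.55 to 3.47) log2 units above muscle. The muscle class it was compared with held 309 progenitor-like and 87 differentiating cells, so that the value does not stand for differentiated muscle. Mural cells held 38.5 CPM (27.7 to 52.3), and no Dmd UMI was found in 56 immune-like cells. After thinning, 18.4% (8.76 to 32.0) of Schwann-like cells had a Dmd UMI, as against 2.56% (1.24 to 4.66) of muscle cells, and the unthinned shares were 71.4% and 14.6%. Only 1 Dmd UMI came from the 28 Schwann-like cells at E12.5.

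Utrn (chr10:12382188-12869365, minus strand) encodes the homologue that fills the place of dystrophin in many cell types. Its level in muscle went from 81.3 CPM (70.6 to 93.3) to 30.01 CPM (25.8 to 34.7), giving a log2 ratio of -1.44 (-1.73 to -1.14) that was -1.08 relative to the median gene. The ratio was -1.13 (-1.22 to -1.03) in connective tissue, -1.42 (-1.61 to -1.23) in chondrocytes and -0.69 (-0.99 to -0.39) in endothelial cells. Muscle lay below the other cells, with a log2 ratio of -0.99 (-1.20 to -0.79) in the E12.5 library and of -1.34 (-1.56 to -1.12) in the older one.

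Sgca (chr11:94962791-94976327, minus strand) encodes alpha-sarcoglycan, known to be confined largely to striated muscle. It had 34 UMIs in muscle and 4 in all other kept cells at E12.5, and 98 and 11 at E15.5. The muscle level was 13.6 CPM (9.39 to 18.9) and 16.0 CPM (13.0 to 19.5), giving a log2 ratio of 0.24 (-0.34 to 0.85), which does not exceed counting error. Muscle was 6.45 (4.96 to 8.40) and 5.66 (4.75 to 6.70) log2 units above the other cells, and gave 89.5% and 89.9% of the UMIs. Within muscle at E12.5, progenitor-like cells held 2.67 CPM (4 UMIs), the Myog-led cluster 16.9 CPM and the sarcomere-led cluster 59.5 CPM (35.3 to 94.1). At E15.5 progenitor-like cells held 12.4 CPM (9.46 to 16.0) and differentiating cells 29.4 CPM (20.8 to 40.3). In progenitor-like cells the log2 ratio between ages was 2.21 (0.78 to 4.14). The thinned shares of muscle cells with an Sgca UMI were 2.34% (1.25 to 3.96) and 2.56% (1.24 to 4.66), against 4.63% and 19.2% unthinned. No thinned endothelial cell had one: the 117 cells of E12.5 allow a share of up to 2.56% and the 132 cells of E15.5 one of up to 2.27%.

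Sgcb (chr5:73632749-73647790, minus strand) encodes beta-sarcoglycan, a subunit that non-muscle cells also make. Its level in muscle was 28.7 CPM (22.5 to 36.1) and 36.4 CPM (31.8 to 41.5), and in connective tissue 30.6 CPM (28.3 to 33.1) and 41.0 CPM (38.1 to 44.0). Muscle and the other cells did not differ beyond counting error at either age (log2 ratios -0.03 and -0.03). Among the classes with at least 30 cells, tenocytes (56.65 CPM) and chondrocytes (52.8 CPM) held the highest levels at E15.5. In chondrocytes the level at E12.5 was 24.0 CPM, giving a log2 ratio between ages of 1.14 (0.74 to 1.54). Within muscle, differentiating cells were above progenitor-like cells by 1.30 (0.58 to 2.05) log2 units at E12.5 and by 1.68 (1.29 to 2.07) at E15.5.

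The regulatory sequence before 4 starts is shown because Sgca and Dmd were higher in the sarcomere-led cells of E12.5 and Lama2 was lower at E15.5 in muscle. The sequences are the 250 bases before each start, read 5′ to 3′ on the gene's strand, from RefSeq on build GRCm38.p6. Starts were matched for 7 of the 10 genes, and the Lama2 start lies inside the annotated span of the gene. Capitals mark matches to the E-box CANNTG, the 6-letter motif that myogenic factors such as Myod1 and Myog bind, and to the CArG box, a longer motif that the factor Srf binds. Both motifs read the same on either strand, and each was searched by its letters alone.
Sgca start, chr11:94976328-94976577, minus strand: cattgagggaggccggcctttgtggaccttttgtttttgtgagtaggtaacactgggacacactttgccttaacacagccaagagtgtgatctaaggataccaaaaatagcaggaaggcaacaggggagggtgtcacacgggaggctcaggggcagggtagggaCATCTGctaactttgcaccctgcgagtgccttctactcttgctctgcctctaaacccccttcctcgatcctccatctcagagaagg
Dmd first start, chrX:82948620-82948869, plus strand: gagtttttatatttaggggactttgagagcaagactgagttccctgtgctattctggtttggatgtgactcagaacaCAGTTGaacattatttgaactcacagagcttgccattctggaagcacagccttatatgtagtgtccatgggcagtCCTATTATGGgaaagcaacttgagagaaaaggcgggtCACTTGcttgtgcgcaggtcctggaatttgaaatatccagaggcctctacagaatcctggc
Dmd start inside the gene, chrX:85048045-85048294, plus strand: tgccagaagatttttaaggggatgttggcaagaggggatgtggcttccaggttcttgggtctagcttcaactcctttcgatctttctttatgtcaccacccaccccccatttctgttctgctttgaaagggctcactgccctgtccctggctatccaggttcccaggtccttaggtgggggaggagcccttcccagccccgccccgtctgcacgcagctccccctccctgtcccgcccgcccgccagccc
Lama2 start, chr10:27616943-27617192, minus strand: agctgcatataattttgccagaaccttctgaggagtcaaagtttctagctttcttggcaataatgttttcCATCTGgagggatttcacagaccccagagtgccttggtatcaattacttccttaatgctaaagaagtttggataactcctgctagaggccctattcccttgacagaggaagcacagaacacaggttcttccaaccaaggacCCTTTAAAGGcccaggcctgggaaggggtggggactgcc
The Sgca window held 1 E-box, the first Dmd window 2 E-boxes and 1 CArG box, the second Dmd window none of either, and the Lama2 window 1 E-box and 1 CArG box. Over 32851 promoter windows of the same length, 66.2% held an E-box and 1.47% a CArG box, so that an E-box is the common case. The member windows not shown, those of Lama5, Dag1, Utrn and Sgcb, held no CArG box. The shown windows were picked, so that their CArG matches are descriptions.

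Over the muscle class, 9 of the 10 genes passed a minimum of 20 CPM at one of the ages, 5 (Lama4, Lama5, Itga6, Itga7 and Dag1) were at least 2-fold higher at E15.5 and 2 (Lama2 and Utrn) at least 2-fold lower. Of the 5, all but Dag1 passed the minimum through E15.5 alone. Of 6625 genes compared, 3.06% were at least 2-fold higher and 15.7% at least 2-fold lower. Relative to the median gene 5 stayed at least 2-fold higher and 1, Utrn, lower. In progenitor-like cells alone the same 5 were higher and Utrn was lower, of 8 that passed, against 3.51% and 15.4% of all genes. Lama5, Itga6 and Itga7 passed there through E15.5 alone. Differentiating cells had 3 higher (Lama5, Itga6 and Itga7) and 2 lower (Lama2 and Utrn) of 9 that passed, against 5.68% and 27.8% of all genes. Of these, Lama5 and Itga7 passed through E15.5 alone and Lama2 through E12.5 alone. The counts in the muscle class and in both stages are therefore descriptions. In differentiating cells Dag1 was under 2-fold on the CPM scale (0.85), and Lama4 had the opposite sign with an interval across 0 (10.9 to 4.64 CPM, log2 ratio -1.23, -2.95 to 0.33). The median gene was 0.49 lower at E15.5 in these cells. Relative to it 5 were higher and 1 lower, because Dag1 (1.34) and Sgcb (1.33) passed 2-fold and Utrn (-0.997) fell under it. Connective tissue had none higher and 1 lower, Utrn, of 5 that passed (relative to the median gene, Lama4 was higher and none lower), against 8.2% and 18.6% of 7570 genes. Endothelial cells had none higher and 1 lower, Lama4, of 4 that passed, against 5.41% and 13.3%.

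Against all other cells, 1 of 7 genes past the minimum (Lama2) was at least 2-fold higher in muscle at E12.5 and 1 (Lama4) at least 2-fold lower, where 5.55% and 13.3% of all genes were. At E15.5, 3 of 8 (Lama5, Itga7 and Dag1) were higher and 2 (Lama4 and Utrn) lower, against 6.01% and 21% of all genes. Lama5 and Itga7, like Lama2 at E12.5, passed the minimum through muscle alone, and Dag1 passed it on both sides. The numbers of higher genes are therefore descriptions. Sgca, the gene most restricted to muscle, stays outside both counts because it was below 20 CPM. Shares near the background, such as these in the lower direction, are not a property of the set.

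Stages within the muscle class were compared next. At E12.5 Itga6, Dmd, Sgca and Sgcb were at least 2-fold higher in differentiating than in progenitor-like cells and Lama4 was lower (8 past the minimum, background 10.2% higher and 11.5% lower). The 4 higher genes passed the minimum through the differentiating cells alone, so that their number is a description. For Itga6, 1 cell held 5 of the 24 UMIs of the E12.5 differentiating cells. Without that cell the log2 ratio was 1.04, with an interval across 0 (-0.03 to 2.15). At E15.5 Itga6, Sgca and Sgcb were higher, and Lama2 and Lama4 lower, of 10 past the minimum (background 10.9% and 19.3%). At E15.5 Sgca too passed through the differentiating cells alone, and the shares of lower genes were near the background at both ages. The Itga6 call at E15.5 rests on 1 cell, which held 31 of the 99 Itga6 UMIs of the differentiating cells and 94309 UMIs in all, and without it the log2 ratio fell from 1.07 to 0.63 (0.21 to 1.04). Relative to the median gene, Lama4 at E12.5 (-0.92) and Lama2 at E15.5 (-0.995) fall under 2-fold and Dmd at E15.5 (1.21) passes it, but on the CPM scale Dmd falls from 0.97 to 0.50 (-0.28 to 1.22) without the cell that holds 10 of its 32 UMIs. Lama4 had the widest gap at E15.5, with 57.7 CPM (51.1 to 64.9) in progenitor-like and 4.64 CPM (1.70 to 10.1) in differentiating cells. The stage mix differed between ages: the differentiating class at E12.5 joined a Myog-led cluster of 182 cells and the sarcomere-led cluster, whereas at E15.5 it was 1 sarcomere-led cluster, and its part in the differences between ages was not tested. Between the sarcomere-led clusters alone, Lama2 was 132 CPM at E12.5 and 16.2 CPM at E15.5 (log2 ratio -3.03, -3.86 to -2.23) and Dmd was 149 and 24.8 CPM (-2.59, -3.29 to -1.90). Utrn (-1.73, -2.54 to -0.89) and Sgca (-1.02, -1.86 to -0.12) were also lower, while Dag1 (0.84, 0.33 to 1.39), Lama5 (3.03, 0.46 to 8.38, from 1 to 35 UMIs) and Itga7 (1.99, 0.03 to 5.09, from 2 to 34 UMIs) were higher. Relative to the median gene Utrn was -1.43 and Sgca -0.72, so that the size of the Sgca difference depends on the scaling. The Dag1 value rests in part on 1 cell of E15.5, which held 57 of the 268 Dag1 UMIs of its cluster. Without that cell the E15.5 level was 176 CPM and not 207 CPM, against 116 CPM at E12.5. Itga6 (0.36, -0.37 to 1.18) and Sgcb (-0.22, -0.83 to 0.44) did not differ beyond counting error, and Lama4 had 0 and 6 UMIs. The markers of the same clusters went both ways: the sarcomere genes Ttn (26850 and 4074 CPM), Myh3 (6214 and 1140) and Acta1 (2024 and 1558) were higher at E12.5, and Myog (837 and 2032) and the creatine kinase gene Ckm (6.61 and 260 CPM) at E15.5.

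**Figure D4:**
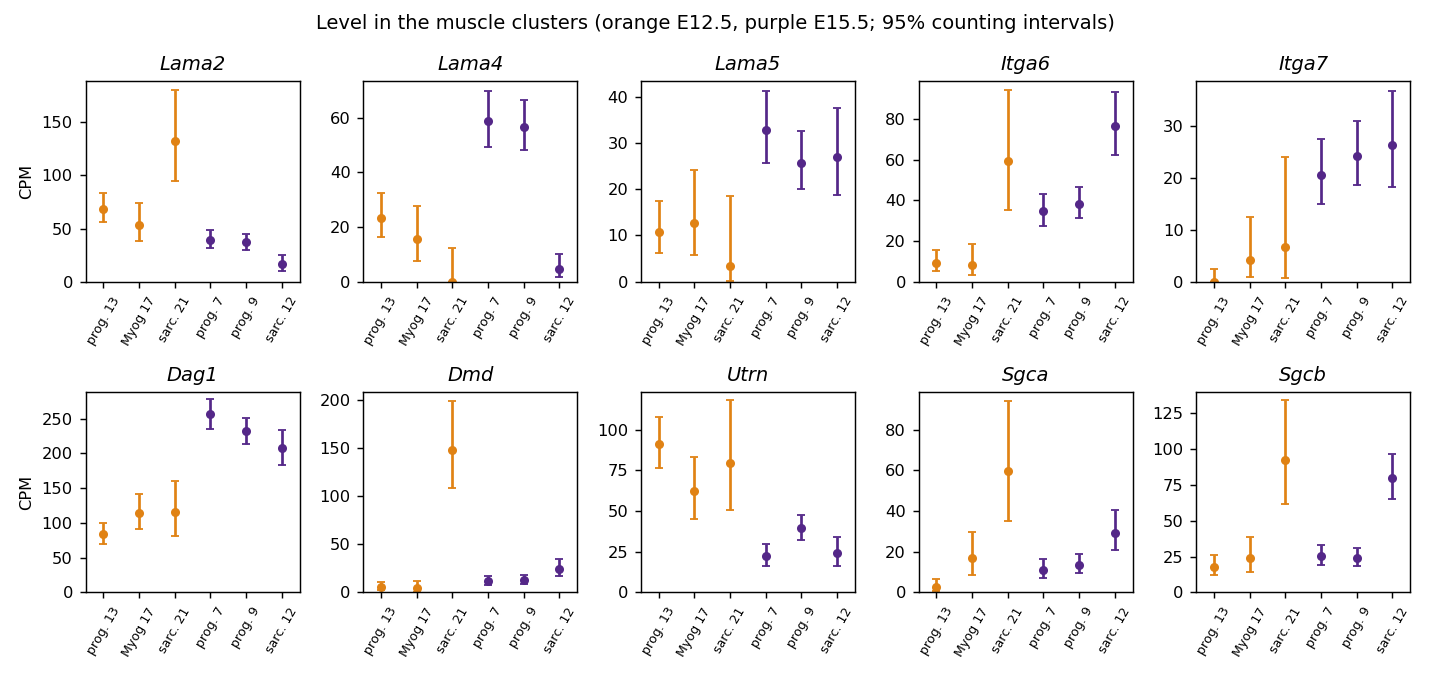
CPM of each gene (y axis, from 0, own scale per panel) in the 6 muscle clusters: progenitor-like, Myog-led and sarcomere-led at E12.5 (orange) and 2 progenitor-like and 1 sarcomere-led at E15.5 (purple), with 95% counting intervals. Dmd and Sgca stand out in the sarcomere-led cluster of E12.5, and Lama4 is close to 0 in both sarcomere-led clusters.

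Other genes of the same system were read from a list of 65, of which 55 are not among the 10. In muscle between ages, 31 of the 55 passed the minimum, 6 were at least 2-fold higher and 4 lower, against 3.06% and 15.7% of all genes, so that the lower share is near the background, with a median log2 ratio of -0.13 against -0.35 over all genes. Those higher included the basement membrane collagens Col4a1 (129 to 351 CPM, log2 ratio 1.45), Col4a2 (1.11), Col15a1 (3.09) and Col18a1 (1.73). The laminin receptor Bcam went from 9.97 to 60.4 CPM (log2 ratio 2.60, 2.01 to 3.25), and the muscle caveolin Cav3 from 11.96 to 84.8 CPM (2.83, 2.29 to 3.41). Bcam and Cav3 passed the minimum through E15.5 alone, so that the number of higher genes is a description. Those lower included the nidogen Nid2 (-1.70), the sarcoglycan Sgcd (-1.86) and the syntrophin Sntb1 (-2.45, -3.14 to -1.80). Of the 13 enzymes in the list that build the sugars of dystroglycan, 3 were past the minimum, and none of these 3 reached 2-fold. Between stages, 5 of 31 non-members past the minimum were at least 2-fold higher in differentiating cells at E12.5 (among them Cav3, Itgb1bp2, Plec and Sntb1) and 5 lower (Col18a1, Col4a1, Col4a2, Lamb1 and Nid2), against 10.2% and 11.5% of all genes, and 2 of these 5 stayed 2-fold lower relative to the median gene. At E15.5, 6 of 26 were higher (among them Bcam, Cav3, Dtna, Itgb1bp2 and Plec) and 7 lower (Col15a1, Col18a1, Col4a1, Col4a2, Lamb1, Lamc1 and Nid1), against 10.9% and 19.3%. A gene could pass the minimum through the stage where it was higher alone, so that these stage counts are descriptions. Past the minimum, the genes at least 2 log2 units above other cells in muscle at E12.5 included Itgb1bp2 (4.46) and Sntb1 (2.96), and at E15.5 Bcam (2.96), Cav3 (6.94) and Itgb1bp2 (6.22).

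The genes most like each member were read over 15 class and age columns of at least 30 cells, as Pearson's r of log2(CPM + 10), among 10633 candidate genes. The columns share 2 libraries and their depth, so r is a description. Sgca lay closest to Mymx (0.996), Mstn (0.993) and Vgll2 (0.993), Lama5 to Jsrp1 (0.913), Hspb2 (0.898) and Hspb1 (0.886). Itga7 lay closest to Rem1 (0.929), Map3k7cl (0.893) and Tagln (0.859), and Itga6 to Frmd8 (0.952), Cd151 (0.917) and Notch1 (0.897). Lama4 lay closest to Nid1 (0.947), Timp3 (0.945) and Lamc1 (0.936), and Lama2 to Kcnh2 (0.942), Ank3 (0.934) and Mapk8ip1 (0.904). Dag1 lay closest to Pcbp4 (0.916), Jam3 (0.903) and Cfl2 (0.886), Utrn to Zfp664 (0.917), Srgap1 (0.913) and Smad5 (0.885), and Sgcb to Spats2l (0.933), Zfp651 (0.922) and Gstm5 (0.916). Dmd lay closest to Cyp39a1 (0.886) and Afap1l2 (0.881).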

How the data were processed

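Single-cell libraries of 2 ages, 1 per age, were read from the deposited matrices of raw counts (UMIs) per gene and barcode, which the authors wrote with Cell Ranger 4.0.0, per the file headers. The submitters' processing notes also name Seurat 4.3.0 and build mm10. The members and lists were chosen with earlier results of these data known. Cells with at least 500 genes and under 10% mitochondrial UMIs were kept, and the highest doublet scores were removed up to 0.8% per 1000 barcodes (1270 and 190 cells). Each library was clustered on its own (2000 variable genes without the 10 members, the 65 pathway genes, 25 proliferation genes and 5 sex-linked genes; 30 components, 15 neighbours, Leiden resolution 1.0). A cluster was named from at least 3 markers at least 2-fold higher, and connective tissue from at least 5, a minimum set after seeing the clusters. Clusters without a name held 829 and 654 cells, including 784 cells led by Dcc and Thbs4 at E12.5. The melanocyte-like cluster also had Schwann genes among its leading genes. At both ages the differentiating clusters were named first, and progenitor-like clusters then by comparison with these alone. UMIs were summed per class. Gene positions came from GENCODE on GRCm38 by Ensembl ID. Leaving out the cell with the most UMIs of a gene was added after seeing the data. Levels have exact Poisson intervals, shares exact Clopper-Pearson intervals and log2 ratios exact conditional intervals, and limits at 0 use 3 counts. A difference is counted from 2-fold upward among genes with at least 20 CPM on either side. The ratio script was tested on simulated data. Named genes outside the members were those of the pathway list past 2-fold between ages or at least 2 log2 units higher in muscle, and the 3 genes most like each member. Some genes that this rule names are not reported here. Python 3.11.15, numpy 2.4.6, scipy 1.17.1, scikit-learn 1.9.0, igraph 0.11.9 and leidenalg 0.10.2 were used.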

Additional observations from a re-analysis of the deposited data

Results flagged for a closer look

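For 3 genes, counting only muscle, connective tissue and endothelial values of genes with at least 20 CPM at one of the ages, the log2 ratio between ages went in opposite directions in 2 cell classes with intervals on either side of 0, and the difference between classes was not tested because there was 1 library per age. Lama2 was -1.10 in muscle and 0.37 in connective tissue. Lama4 was 1.34 in muscle and 0.68 in connective tissue, but -1.28 in endothelial cells. Itga6 was 1.57 in muscle and -0.29 in endothelial cells, and the endothelial value was 0.00099 relative to the median gene, so that the opposite sign there depends on the scaling. Below that minimum in connective tissue, Lama5 was 1.46 in muscle and -1.87 there, and Itga6 was -0.65 there.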

How the results depend on the processing

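The counts of genes past 2-fold were recomputed under up to 13 alternatives each; the male and female cell splits were chosen after seeing the data. The endothelial count, 1 in the report, was 2 with cells of equal weight, 2 with each cell thinned to 2000 UMIs, 2 in male cells and 0 scaled to the median gene. The muscle count was 6 or 7 throughout, but male cells gave 3 higher and 3 lower. In male cells Lama4 was 0.92, Lama5 1.02 and Dmd -1.12, and a counted gene also had to reach 20 CPM at one of the ages. Lama2 fell under 2-fold with all deposited cells (-0.73) and with no doublets removed. In connective tissue the 1 gene past 2-fold was Lama4, higher, and not Utrn when scaled to the median gene. Of 518 recomputed ratios, 469 stayed within the counting interval and no gene past 2-fold changed sign. Dmd between ages in muscle ranged from -1.12 to 0.42, and Itga6 from 1.24 to 3.01. No paired analysis was possible because there was 1 library per age. Depth limits Itga7 and Lama5 at E12.5 and Sgca throughout.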
